A study of Homo sapiens with 2 samples.

Results

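The protein tyrosine phosphatases and the dual-specificity phosphatases were examined in a human B-lymphoblastoid cell line. Members were taken from the 36289 probe sets used here as those with exactly 1 annotated gene symbol of the form PTPN or DUSP followed by a number, or PTPR followed by a letter and an optional digit. This gave 112 probe sets of 53 genes, out of 29493 probe sets with 1 symbol and 16716 measured genes. Other probe sets of the array were not analysed here. The number of sets of a gene, a call of not above background and the shares of all genes hold only for the sets used. The members comprise 16 non-receptor (PTPN), 17 receptor-type (PTPR) and 20 dual-specificity (DUSP) genes. The cells are written GM06690 in the sample titles and GM06990 in the growth protocol, a line made permanent with Epstein-Barr virus and grown in RPMI1640 with fetal calf serum, and neither label names a treatment. Total RNA of 2 replicates of this 1 group was hybridised to a Human Genome U133 Plus 2.0 array each. With 1 group there is no second condition to compare it with.

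These enzymes remove phosphate from tyrosine, and the dual-specificity members from serine and threonine as well, through a shared active-site cysteine. In lymphocytes the receptor-type phosphatase CD45, encoded by PTPRC, keeps Src family kinases ready to signal, whereas SHP1, encoded by PTPN6, is drawn to inhibitory receptors and damps antigen receptor signals. A subset of the DUSP proteins, the MAP kinase phosphatases, switch off ERK, JNK and p38.

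Values are log2 RMA signals, and each gene was read from whichever of its probe sets was brightest on average. A gene counted as above background when it exceeded, on both arrays, a level below which 95% of 91 genes specific to other tissues lie, by interpolation. This level was 5.40 on the log2 scale in replicate 1 (intensity 42.2) and 5.43 in replicate 2 (intensity 43.0). Probe sets differ in affinity, so a higher signal of one gene than of another is not a ranking of their transcripts. Errors are SD over the 2 arrays (n = 2), and nothing in the labels says that these came from separate cultures, so the spread may be technical. The B-cell markers CD79A (11.30 ± 0.03), MS4A1 (13.19 ± 0.10) and PAX5 (12.13 ± 0.04) were above background, as were 6 of 6 measured B-cell markers. None of 6 T-cell, 4 NK-cell, 5 myeloid, 4 fibroblast, 4 endothelial or 3 neural markers was above background on both arrays, and CDH1 was the 1 of 4 epithelial markers that was. In a bulk culture, fewer cells with a transcript and less of it per cell cannot be told apart.

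Of the 53 phosphatase genes 33 (62.3%) were above background on both arrays, against 54.2% of all measured genes, 19 were not above on either array and 1 was above on 1 array only, against 1.85% of all genes. Counted by probe set the share of the members was not higher: 49 of 112 probe sets (43.8%) were above background, against 49.7% of all probe sets used with 1 symbol. The phosphatase genes had 2.11 probe sets each and all measured genes 1.76, and the part this plays in the gene share was not tested. The median signal was 6.76 over the phosphatase genes and 6.10 over all measured genes. The families differed in their shares. Of the PTPN genes 13 of 16 were above background, of the DUSP genes 14 of 20, and of the PTPR genes 6 of 17. The PTPR share of 35.3% lay below that of all genes and the PTPN share of 81.2% above it. The latter order rests on the choice of probe set: read by the dimmest set of each gene, 37.5% of PTPN genes and 34.0% of all phosphatase genes were above background, against 46% of all genes.

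**Figure D1:**
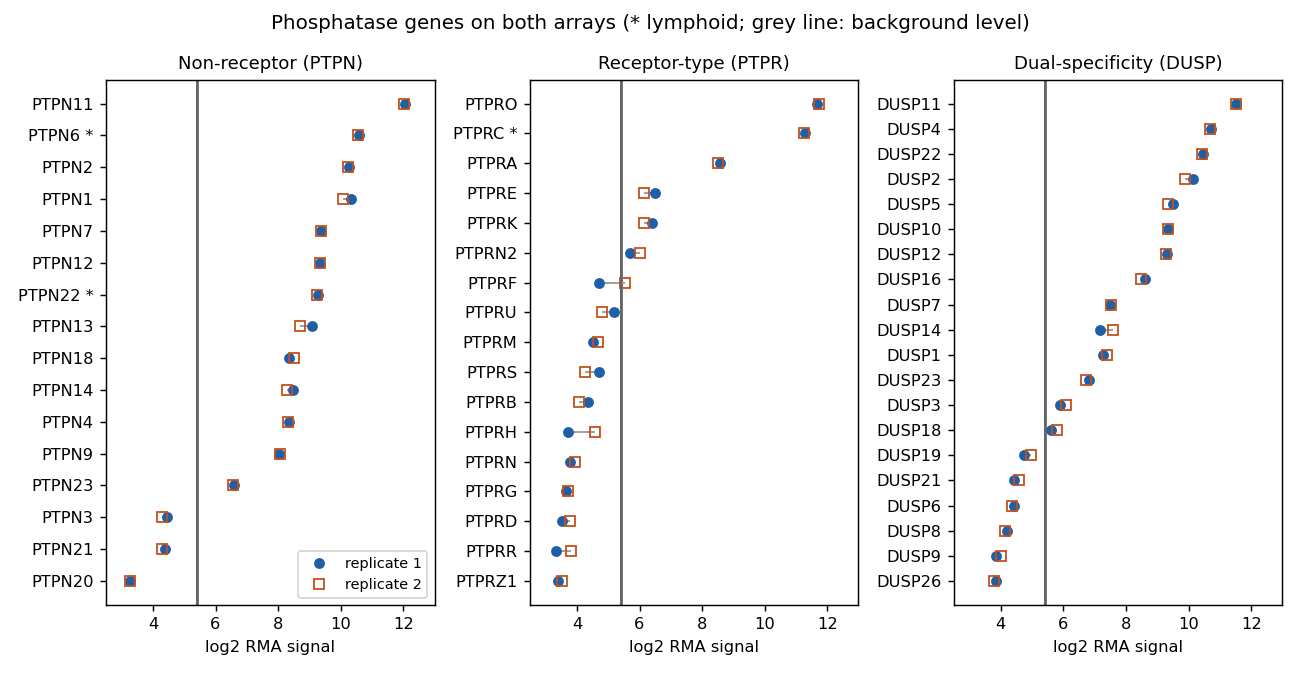
Log2 RMA signal of each of the 53 phosphatase genes in replicate 1 (filled circles) and replicate 2 (open squares), by family, with the background level as a grey line and the lymphoid genes starred. Most PTPN and DUSP genes lie right of the line and 10 of the 17 PTPR genes lie left of it on both arrays, while PTPRF crosses it.

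The lymphoid members PTPRC, PTPN6 and PTPN22 were all above background. PTPRC, whose product is the abundant leukocyte surface phosphatase, had a signal of 11.28 in replicate 1 and 11.25 in replicate 2 (11.27 ± 0.03). PTPN6 gave 10.60 and 10.54 (10.57 ± 0.04). PTPN22, which encodes the phosphatase LYP that acts with the kinase CSK on Src family kinases, gave 9.27 and 9.24 (9.26 ± 0.03). Each was higher in replicate 1, by 0.06 or less on the log2 scale. Their margins over the background level, taken on the array where it was smaller, were 5.82, 5.11 and 3.81, each larger than the difference between the arrays.

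Set against the other 50 genes, of which 30 (60.0%) were above background, the 3 lymphoid genes were all above, with a median signal of 10.57 against 6.44. The 30 others above background had a median of 8.54. The lymphoid genes had 3.00 probe sets each and the other 50 genes 2.06, and the part this plays was not tested. With 3 genes the contrast is a description and was not tested. They did not stand apart from the brightest other members: 13 of the 30 had a margin at least as large as that of PTPN22, and 3 (PTPN11, PTPRO and DUSP11) had a larger one than PTPRC. The median SD of the lymphoid genes was 0.03 and that of the others above background 0.06.

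These calls rest on few probe sets. PTPRC has 5, of which 212587_s_at (11.28 and 11.25), 212588_at (11.18 and 11.17) and 207238_s_at (9.69 and 9.55) were above background. The other two, 1569830_at (3.50 and 3.54) and 1552480_s_at (3.20 and 3.35), were far below it. PTPN22 was bright by 206060_s_at (9.27 and 9.24) and 208010_s_at (7.34 and 7.20) but not by 208011_at (3.48 and 3.58). PTPN6 has the single probe set 206687_s_at. The suffix _s_at marks a set whose probes match several transcripts, which may belong to more than 1 gene. With sets ending in _s_at or _x_at left out, PTPN6 could not be measured, PTPN22 was not above background, and 1 of 2 lymphoid genes remained above.

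The sequence before the starts of these genes was read next, since their choice did not use it. RefSeq promoter windows (GRCh38.p14), each the 250 bases before an annotated start, were found for 46 of the 53 genes, with 67 windows in all because a gene can have several starts. The lymphoid windows are printed first, then both windows of PTPRO, a gene discussed further on, and then a window of DUSP2 (above background) and of PTPRZ1 (not above) for contrast. Sequences run 5′ to 3′ on the strand of the gene, and capitals mark each CpG, the dinucleotide at which human DNA is methylated.
PTPRC, chr1:198638790-198639039, plus strand: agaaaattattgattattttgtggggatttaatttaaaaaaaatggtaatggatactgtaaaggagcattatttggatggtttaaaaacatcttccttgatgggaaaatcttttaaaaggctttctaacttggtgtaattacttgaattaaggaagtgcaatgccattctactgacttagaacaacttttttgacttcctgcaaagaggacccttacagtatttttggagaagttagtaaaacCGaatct
PTPN6 upstream start, chr12:6946327-6946576, plus strand: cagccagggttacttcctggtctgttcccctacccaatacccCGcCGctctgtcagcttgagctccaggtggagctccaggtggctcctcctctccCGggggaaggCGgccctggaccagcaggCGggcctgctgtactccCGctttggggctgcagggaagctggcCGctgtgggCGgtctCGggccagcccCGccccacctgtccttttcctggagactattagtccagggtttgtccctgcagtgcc
PTPN6 downstream start, chr12:6951106-6951355, plus strand: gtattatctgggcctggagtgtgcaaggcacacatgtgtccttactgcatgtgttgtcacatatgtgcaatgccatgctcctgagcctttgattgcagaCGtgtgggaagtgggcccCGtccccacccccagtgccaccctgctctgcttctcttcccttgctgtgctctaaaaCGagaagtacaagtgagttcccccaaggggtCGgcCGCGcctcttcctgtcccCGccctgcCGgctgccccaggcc
PTPN22, chr1:113871713-113871962, minus strand: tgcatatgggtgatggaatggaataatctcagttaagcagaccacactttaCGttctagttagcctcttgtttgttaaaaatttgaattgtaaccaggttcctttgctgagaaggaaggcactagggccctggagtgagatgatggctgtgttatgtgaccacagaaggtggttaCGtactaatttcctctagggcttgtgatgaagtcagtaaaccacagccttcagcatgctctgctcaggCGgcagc
PTPRO upstream start, chr12:15322258-15322507, plus strand: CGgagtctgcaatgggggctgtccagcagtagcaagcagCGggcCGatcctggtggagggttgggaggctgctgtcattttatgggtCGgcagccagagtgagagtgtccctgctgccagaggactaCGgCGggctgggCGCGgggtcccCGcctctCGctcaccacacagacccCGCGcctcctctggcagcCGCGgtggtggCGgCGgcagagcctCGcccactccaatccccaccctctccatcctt
PTPRO downstream start, chr12:15546361-15546610, plus strand: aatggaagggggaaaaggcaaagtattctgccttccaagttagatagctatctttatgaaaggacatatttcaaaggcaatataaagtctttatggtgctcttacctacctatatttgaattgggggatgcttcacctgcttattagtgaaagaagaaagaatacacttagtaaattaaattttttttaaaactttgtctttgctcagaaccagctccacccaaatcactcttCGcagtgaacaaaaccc
DUSP2, chr2:96145441-96145690, minus strand: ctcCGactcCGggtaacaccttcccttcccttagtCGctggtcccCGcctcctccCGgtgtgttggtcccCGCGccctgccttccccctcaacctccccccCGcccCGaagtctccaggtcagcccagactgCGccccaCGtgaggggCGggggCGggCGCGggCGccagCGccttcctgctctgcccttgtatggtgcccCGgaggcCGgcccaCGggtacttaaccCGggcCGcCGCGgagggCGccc
PTPRZ1, chr7:121872911-121873160, plus strand: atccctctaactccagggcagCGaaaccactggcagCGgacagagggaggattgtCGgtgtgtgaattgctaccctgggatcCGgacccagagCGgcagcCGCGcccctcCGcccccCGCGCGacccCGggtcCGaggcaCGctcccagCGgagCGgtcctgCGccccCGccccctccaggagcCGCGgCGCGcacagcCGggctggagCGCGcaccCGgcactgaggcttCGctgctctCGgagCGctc

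The PTPRC window holds 1 CpG, that of PTPN22 holds 3, and those of PTPN6 hold 10 at the upstream and 8 at the downstream start. In the other phosphatase genes above background the 34 windows had a median of 22.5, in the genes not above background the 29 windows had 17, and over 18584 windows of all measured genes the median was 17. A limit of 10 CpG was set after these counts were seen. All windows of a gene lay at or under it for the 3 lymphoid genes, for 2 of 25 other phosphatase genes above background (PTPN2 and PTPN7) and for 4 of 18 not above it. Over all measured genes with a window this held for 26.0%, and for 10.1% of those above background. Counted by window, 11 of 34 (32.4%) of the other phosphatase windows above background lay at or under the limit. So did 12 of 29 (41.4%) of those not above it and 34.8% of all windows. The DUSP2 and PTPRZ1 windows printed above hold 25 and 29 CpG, each more than the median of its group. The limit equals the higher of the PTPN6 counts, so the lymphoid count describes the lymphoid windows only. The share of G and C was not alike among them: it was 31.2% for PTPRC, 45.6% for PTPN22, and 66.4% and 59.6% for PTPN6, with a median of 66.0% over the phosphatase windows. The ETS core, spelled GGAAGT and searched on both strands, was found in 3 of the 4 lymphoid windows: that of PTPRC and both of PTPN6. It was found in 9 of 63 windows of the other members and in 20.9% of all windows. Among genes above background it was in 8 of 34 windows (23.5%) of the other members and in 24.2% of all windows. The octamer ATGCAAAT was in none of the 67 phosphatase windows and in 1.43% of all windows. Further motifs were searched in the same way. Of the 4 lymphoid windows the GC box (GGGCGG) was in 2, against 54.9% of all windows, and the CCAAT box in 1, against 32.8%. The PU box core (GAGGAA) was in 1, against 23.7%. The TATA box, CRE and kappaB motifs were in none, against 8.23%, 2.18% and 11.4%. A match of letters does not show a bound site.

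**Figure D2:**
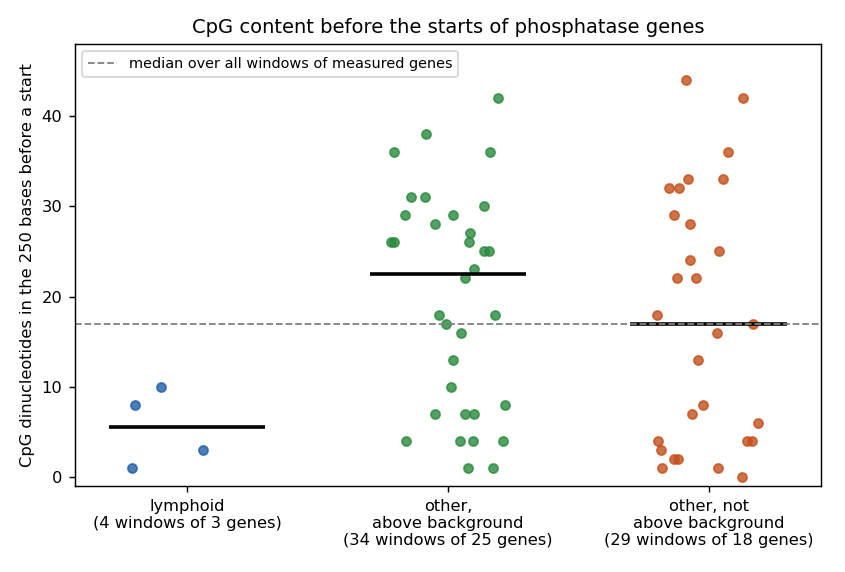
CpG dinucleotides in the 250 bases before each annotated start of the lymphoid genes, of the other phosphatase genes above background and of those not above it (a point per window, black bar the median, dashed line the median of 17 over all windows of measured genes). The 4 lymphoid windows lie between 1 and 10, while the other groups range from 0 to 44.

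The remaining non-receptor phosphatases were mostly above background, with 11 of 14 (78.6%), against 54.2% of all genes. By probe set 17 of 33 (51.5%) were, near the 49.7% of all sets with 1 symbol. PTPN11, which encodes SHP2, the positive regulator of RAS signalling related to SHP1, gave 12.04 and 12.01 on the arrays. PTPN1, which encodes the ER-anchored PTP1B, gave 10.35 and 10.08, and PTPN2, whose product TCPTP dephosphorylates JAK and STAT proteins, gave 10.26 and 10.24. The haematopoietic phosphatase PTPN7, which acts on ERK and p38, gave 9.38 on both arrays. PTPN12 (9.35 and 9.34) and PTPN18 (8.35 and 8.49), both of the PEST group to which PTPN22 belongs, were above background too. The arrays differed by 0.26 for PTPN1 and by less for the others, so all lay well above the level.

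Further members above background were PTPN13 (9.07 and 8.70), PTPN14 (8.48 and 8.29), PTPN4 (8.36 and 8.31), PTPN9 (8.04 and 8.06) and PTPN23 (6.58 and 6.57). PTPN13, PTPN14 and PTPN4 carry a FERM domain, which binds membranes. Of the other FERM members PTPN3 (4.43 and 4.30) and PTPN21 (4.37 and 4.29) were below background, so the FERM group was split. PTPN20 was the dimmest of the family (3.26 and 3.25).

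The probe sets of the PTPN genes often gave different calls. PTPN11 has 6, of which 212610_at (12.04 and 12.01), 209896_s_at (10.09 and 9.91) and 209895_at (8.73 and 8.57) were above background and 3 were not, down to 1552637_at (3.60 and 3.61). PTPN1 was called by 1 of 3 sets, PTPN12 by 2 of 3 and PTPN14 by 1 of 2. All 3 sets of PTPN2 and none of the 4 of PTPN21 were above background.

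The receptor-type phosphatases were mostly at background. Without PTPRC, 5 of 16 were above it, against 54.2% of all genes, with a median signal of 4.54. By probe set 6 of 34 (17.6%) were, against 49.7% of all sets with 1 symbol. The brightest was PTPRO, known from kidney podocytes and, in a truncated form, from lymphocytes, which gave 11.68 and 11.72. It was bright by 1 of 3 probe sets only: 211600_at was at 11.70 ± 0.03, while 208121_s_at (3.95 ± 0.10) and 1554199_at (3.66 ± 0.03) were below background. RefSeq gives PTPRO a pair of starts with windows, printed above, the downstream one with 1 CpG and the upstream one with 17. The arrays do not show which start was used.

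PTPRA, a widely expressed activator of Src kinases, gave 8.57 and 8.51, and its second probe set was above background as well. PTPRE, its close relative, gave 6.48 and 6.13. PTPRK, a cell adhesion phosphatase, gave 6.40 and 6.13, and PTPRN2, an enzyme-like protein of secretory vesicles, gave 5.71 and 6.03. These last 3 lay close to the level. When 99% of the reference genes were required to lie below it, 3 of 17 PTPR genes were above background in place of 6, namely PTPRC, PTPRO and PTPRA.

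PTPRF, the adhesion phosphatase LAR, was below background in replicate 1 (4.72) and above it in replicate 2 (5.53). The other 10 PTPR genes were below on both arrays. PTPRU (5.18 and 4.82), the brightest of these, and the dimmest, PTPRZ1 (3.39 and 3.51), a phosphatase of glial cells, mark their range. The endothelial phosphatase PTPRB (4.37 and 4.05), the neural PTPRD (3.52 and 3.76) and PTPRN (3.79 and 3.93), and the epithelial PTPRH (3.70 and 4.57) were among them. In a list of 14 phosphatases of neural, endothelial or epithelial tissues, 11 were measured and 1, PTPRN2, was above background. In a list of 7 phosphatases known from blood cells besides the 3 lymphoid genes, 6 were measured and 6 were above background, against 54.2% of all genes: PTPN7, PTPRE, PTPRO, DUSP2, PTPN12 and PTPN18. By probe set 8 of 14 in that list were above (57.1%), against 49.7% of all sets with 1 symbol, and 1 of 22 in the list of other tissues. Both lists were drawn up with results of these data known, so the contrast between them is a description. The list of other tissues leaves out the adhesion phosphatases PTPRK, above background, and PTPRF, above in replicate 2 alone. Its count thus depends on which genes were put in it.

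**Figure D3:**
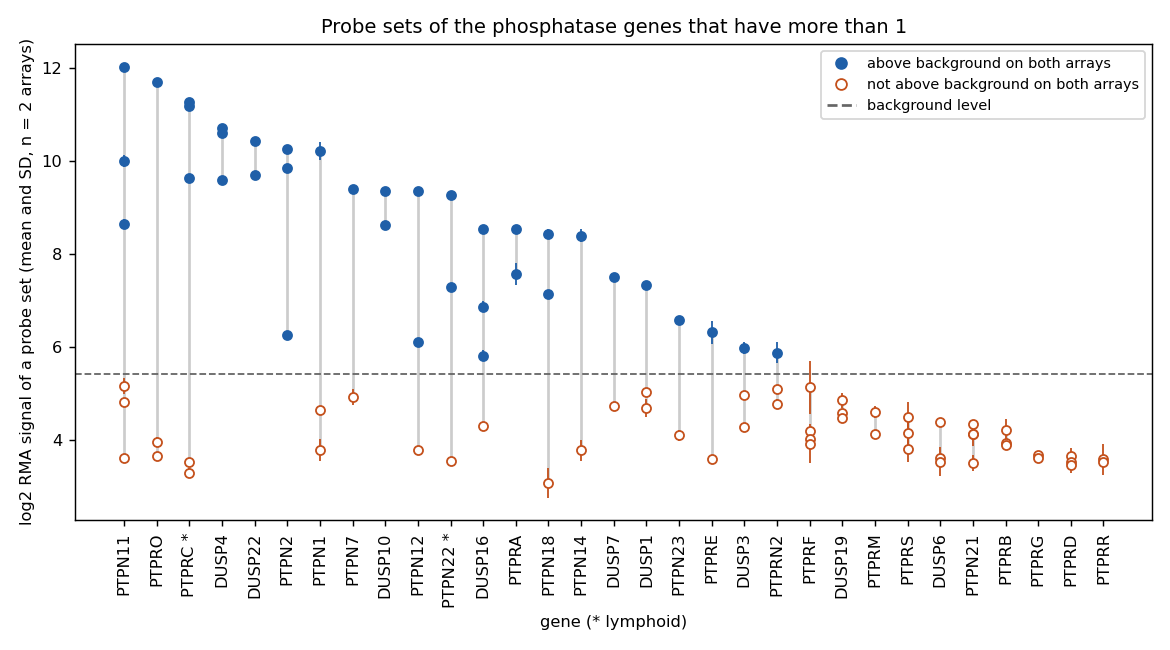
Mean log2 RMA signal and SD (n = 2 arrays) of each probe set of the 31 phosphatase genes with more than 1 set, ordered by the brightest, with the background level dashed. In 16 genes, PTPRC and PTPRO among them, filled points above the level and open points below it belong to the same gene.

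Among all 31 phosphatase genes with several probe sets, 16 (51.6%) had some sets above background and some not, 5 (16.1%) had every set above and 10 had none. Of all measured genes with several sets, 32.5% were mixed and 35.0% had every set above. The members with every set above were DUSP4, DUSP10, DUSP22, PTPN2 and PTPRA. What part of each transcript a set reads was not examined here.

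Among the MAP kinase phosphatases 7 of 10 (70.0%) were above background, against 54.2% of all genes. By probe set 12 of 21 (57.1%) were, against 49.7% of all sets with 1 symbol. Their classes hold 3 or 4 genes each, so the counts per class are a description. All 4 of the nuclear, stimulus-induced enzymes were above background. DUSP4 gave 10.70 and 10.69, and DUSP2 (also called PAC1, described in activated lymphocytes) gave 10.14 and 9.89. DUSP5, which acts on ERK, gave 9.51 and 9.35, and DUSP1 gave 7.26 and 7.39. DUSP4 was seen by 3 of 3 probe sets, with the dimmest at 9.58 on both arrays. DUSP1 was seen by 1 of 3, and without sets ending in _s_at or _x_at it could not be measured. Promoter windows were found for 8 of the 10 MAP kinase phosphatases, above background or not, and for DUSP1 and DUSP2 of these 4. The GC box (GGGCGG, either strand), 1 of several motifs searched, was in 9 of their 10 windows. It was in 54.9% of all windows and in 63.5% of windows of genes above background. The median share of G and C was 74.6% in the 10 windows and 62.4% in all windows, and the part this plays was not tested.

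Of the cytoplasmic ERK phosphatases 1 of 3 was above background. This was DUSP7 (7.48 and 7.50), by 1 of 2 probe sets. DUSP6 (4.42 and 4.35), a transcriptional target of ERK itself, was below background by all 3 of its sets, and DUSP9 (3.86 and 3.99) was below too. Among the enzymes that prefer JNK and p38, DUSP10 (9.36 and 9.35) and DUSP16 (8.59 and 8.49) were above background, and DUSP8 (4.18 and 4.14) was not. Among these 6 genes the largest difference between the arrays was 0.13, for DUSP9, so each lay well to one side of the level.

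Atypical DUSP genes, which lack the MAP kinase binding domain, were above background in 7 of 10 cases (70.0%), against 54.2% of all genes. By probe set 8 of 15 (53.3%) were, against 49.7% of all sets with 1 symbol. DUSP11, an RNA phosphatase, gave 11.52 on both arrays. DUSP22, whose product JKAP acts on LCK in T cells, gave 10.45 and 10.42, and both of its probe sets were above background. DUSP12 gave 9.32 and 9.28, DUSP14 gave 7.18 and 7.59, and DUSP23 gave 6.82 and 6.71. DUSP3 (5.89 and 6.07) and DUSP18 (5.61 and 5.81) lay nearest above the level and were not above the stricter 99% level. DUSP19 (4.73 and 4.96), DUSP21 (4.41 and 4.56) and DUSP26 (3.83 and 3.79) were below.

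Of the 53 genes 49 lay further from the background level on each array than their arrays lay from each other. The other 4 were PTPRF, PTPRU, PTPRN2 and PTPRH, all receptor-type. A difference beyond 0.58 (log2) was seen in 1 of the 34 members that exceeded background on either array, PTPRF, at 0.81 (replicate 2 minus replicate 1), and in 0.854% of all such genes. No member of the 34 exceeded a difference of 1, which 0.0534% of all such genes did. PTPRH differed by 0.87 but was below background on both arrays. Of members above background on both arrays the largest differences were 0.42 for DUSP14, -0.37 for PTPN13 and -0.35 for PTPRE. Of all 53 members 33 were lower in replicate 2, and 51.9% of all genes were. The members above background were lower there in 24 of 33 cases (72.7%), and 56.7% of all genes above background were, with median differences of -0.03 and -0.02. The median SD was 0.04 in members above background and 0.10 in the others, close to 0.05 and 0.10 over all genes.

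**Figure D4:**
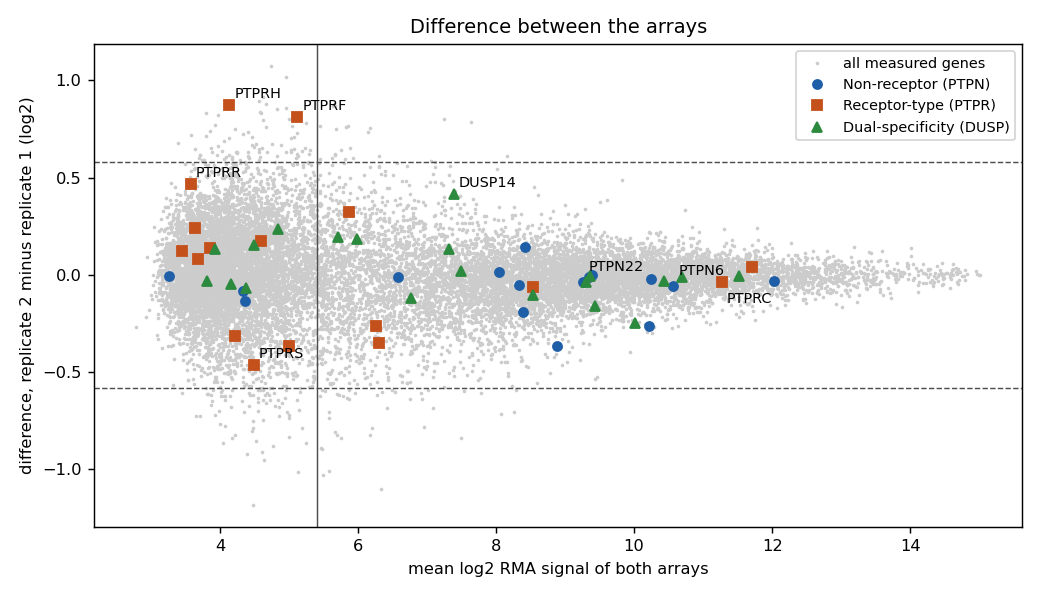
Difference between the arrays (replicate 2 minus replicate 1, log2) against the mean log2 RMA signal for all 16716 measured genes (grey) and the phosphatase genes by family, with dashed lines at a difference of 0.58 either way and a vertical line at the background level. PTPRF and PTPRH lie above the upper line, left of the background level, and the 3 lymphoid genes lie near 0.

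Genes of the pathways these phosphatases act in were read from lists of their own. The kinases at the start of B-cell receptor signalling are substrates and partners of PTPRC, PTPN6 and PTPN22. They were above background in 7 of 7 cases, against 54.2% of all genes. Examples were LYN (11.28 ± 0.09), SYK (9.08 ± 0.09) and BTK (10.67 ± 0.05). Of their probe sets 12 of 16 were above, against 49.7% of all sets with 1 symbol. FYN was above by 1 of 4 sets and BLK by 1 of 2, and the others by every set. Inhibitory receptors, adaptors and binding partners were above in 10 of 17 (58.8%), near the 54.2% of all genes. CD22, a receptor that recruits PTPN6, was at 8.96 ± 0.06, and the inhibitory Fc receptor FCGR2B at 9.51 ± 0.03, both above background, whereas CD72 was below it (4.99 and 4.25). LAIR1 (4.68 ± 0.23), CD5 (4.84 ± 0.20), CEACAM1 (4.96 ± 0.09) and SIRPA (4.14 and 4.15) were below background as well. PTPRCAP, which encodes a small partner protein of CD45, gave 9.97 and 9.96.

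The MAP kinases were above background in 7 of 8 measured cases (87.5%), against 54.2% of all genes. Of their probe sets 14 of 19 (73.7%) were above, against 49.7% of all sets with 1 symbol. MAPK3 (ERK1) was at 7.64 ± 0.03, MAPK8 (JNK1) at 8.65 ± 0.04 and MAPK9 (JNK2) at 9.57 ± 0.09. The exception was MAPK10 (5.21 ± 0.12), the JNK gene of neurons. Other feedback regulators and targets of ERK signalling were above in 4 of 9 cases (44.4%), against the same 54.2%. These were the inhibitor SPRY2 (8.97 ± 0.04), SPRED2 (5.87 ± 0.06), ETV5 (5.51 ± 0.03) and IER3 (9.67 ± 0.13). SPRY1 (4.90 ± 0.25) and SPRED1 (3.63 ± 0.12) were below, and SPRY4 was above in replicate 1 alone (5.43 and 5.16).

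Cysteine phosphatases outside the named families were above background in 20 of 23 cases. Among them were the low molecular weight phosphatase ACP1 (11.45 ± 0.04) and the cell cycle phosphatases CDC25A (8.68 ± 0.08) and CDC25B (8.94 ± 0.09). The exceptions were CDC14A (5.33 ± 0.01), CDC14B (5.62 and 5.34, above in replicate 1 alone) and SSH3 (5.11 ± 0.09). The share of these cysteine phosphatases was 87.0%, against 54.2% of all genes. They had 3.04 probe sets each and all measured genes 1.76. Of their probe sets 44 of 70 (62.9%) were above, against 49.7% of all sets with 1 symbol.

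**Figure D5:**
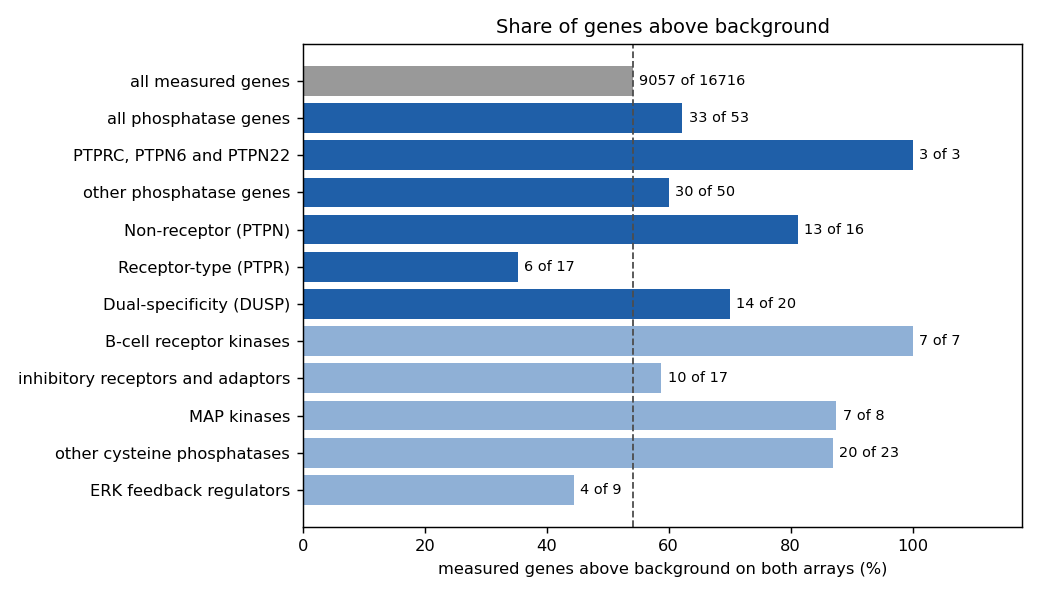
Percentage of measured genes above background on both arrays for all genes, for the phosphatase groups (dark bars) and for lists of pathway genes (light bars), with counts beside the bars and the share of all genes (54.2%) dashed. The PTPR bar (6 of 17) and the bar of the ERK feedback regulators (4 of 9) lie below the dashed line.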

How the data were processed

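Probe set signals of both arrays of the GM06690 group were used. The deposited intensities were made by the authors with RMA (background correction, quantile normalization and a summary over probes), per the submitters' processing notes; its version and any genome build are not given in the sources used here. The values ran from 6.29 to 33093, which is a linear scale, and log2 was taken of each. The sorted values of the arrays differ by at most 0.14 on the log2 scale, so a change in total messenger RNA could not be seen. Quantile normalization also makes the spread between the arrays smaller.

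Of 36289 probe sets used, 29493 had 1 symbol in the platform annotation, 1407 several and 5389 none; none of those with several symbols holds a phosphatase of these families. Other probe sets of this design, which could add to a gene, were not analysed here. The 95th percentile leaves 5 of the 91 reference genes above the background level (CYP3A4, HPX, TNNT3, SFTPB and PRL). Promoter windows were matched by Entrez ID to a RefSeq table of GRCh38.p14. Phosphatase genes without a window are described by their signals only.

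With 1 group there is no contrast, so no test was run and no p-value is given. The number of arrays limits the precision. The members and gene lists were chosen with earlier results of these data known. Every phosphatase gene could be named; of the other lists, the first 3 measured genes and up to 5 on the minority side of the background were, with further examples chosen after their values were seen. Alternatives covered the background level, the probe sets used, a second quantile normalization, updated symbols and each array alone. The steps that call a gene above background or different between arrays were checked on simulated data. That simulation held separate high and low genes and changes of a single size. It thus does not cover signals between the high and low genes, such as those close above the level. Python 3.11.15, numpy 2.4.6 and pandas 2.3.3 were used.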

Additional observations from a re-analysis of the deposited data

How the results depend on the processing

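The choice of probe sets moved the counts most. With each gene read by its dimmest probe set, 18 of 53 phosphatase genes were above background in place of 33, 1 of 3 lymphoid genes (PTPN6, which has 1 set), 17 of the 50 others, 6 PTPN and 2 PTPR genes, while 46% of all genes were. Without probe sets ending in _s_at or _x_at, 1 of 2 lymphoid genes and 8 of 13 PTPN genes that could still be measured were above background. The background level was recomputed in both cases. With a level above 99% of the reference genes the PTPR count was 3. PTPRF was the 1 member that differed by more than 0.58; the count was 2, with PTPRH, for a level above 75% of them, and 0 for the 99% level, with the mean of all probe sets, without _s_at and _x_at sets, or with a minimum difference of 1. The causes were not tested. With 1 array alone the phosphatase count was 33 or 34 (PTPRF added in replicate 2), and the lymphoid count stayed at 3. The 33 genes above background were the same after a second quantile normalization, with updated symbols and with the level from 67 olfactory receptor genes. RMA gives no detection call, so genes near the level may lie on either side. No paired analysis was possible because there is 1 group.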

Other observations

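Symbols that resemble the families but fall outside their patterns were read separately, by 1 probe set each. DUSP13B (4.77 and 4.42), the pseudogene DUSP5P1 (3.89 and 3.60) and the antisense transcripts PTPRD-AS1 (3.07 and 3.19), PTPRK-AS1 (3.36 and 3.43), PTPRN2-AS1 (3.98 on both arrays) and PTPRT-AS1 (3.49 and 3.61) were below background on both arrays. PTPRN2 itself was above background by 1 of its 3 probe sets. Its other sets, 203029_s_at (5.09 and 5.06) and 211534_x_at (4.84 and 4.71), were below. In the list of neural, endothelial or epithelial phosphatases, drawn up with results known, it was the 1 of 11 measured genes above background.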
